A study of Mus musculus with 18 samples.

Results

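Smndc1 was knocked down in alphaTC1 cells, and the transcriptome of the whole, unsorted population was compared with that of control cells 5 days after transduction. The libraries were taken by their labels: all 3 libraries of cells transduced with an shRNA against Smndc1 (shSmndc1) and all 3 of cells transduced with an empty vector (EV), which are 6 of the 18 libraries of the series. No measured value entered that choice, and all genes were included. The other 12 libraries came from cells that also carried RIP-mCherry, a fluorescent reporter under the rat insulin promoter. Of these, the 4 libraries of empty-vector cells with the reporter (EV_RIP) and the 4 of knockdown cells sorted as reporter-positive were compared here to read the same genes in separate libraries. The 4 libraries of reporter-negative knockdown cells were part of the same fit, where they entered the filter, the scaling and the estimate of the spread. The labels give no day for those libraries, no sort for EV_RIP and no vector or hairpin sequence. The knockdown rests on 1 hairpin in 1 cell line, and the control expressed no hairpin, so that the effect of losing Smndc1 and that of expressing an shRNA cannot be told apart.

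SMNDC1 is a nuclear protein with a Tudor domain, related to the survival motor neuron protein, that binds methylated arginines of spliceosomal proteins and is needed for assembly of the mature spliceosome. Pancreatic alpha cells make glucagon, cut it from a precursor with the convertase PCSK2, store it in dense-core granules and release it by calcium-triggered exocytosis, a step carried out by SNARE proteins. AlphaTC1 is an immortalised line from a mouse islet tumour that keeps glucagon production, while its cells divide and lack many traits of adult alpha cells.

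Levels are given as CPM, read counts scaled to library depth with the TMM method, fold changes are on the log2 scale with knockdown over control, and a gene is called where the adjusted p of edgeR's quasi-likelihood test was under 0.05. Total counts lay between 37233208 and 66676008 per library. The glucagon transcript, Gcg, was abundant in all 6 libraries, at 3774, 6853 and 4714 CPM in the EV libraries and 8564, 8035 and 6292 CPM in the shSmndc1 libraries, and did not pass (log2 fold change 0.58, edgeR adjusted p = 0.136). Among the other alpha cell markers tested, Irx1, Irx2, Pou3f4, Ttr and Slc7a2 did not pass either, and Peg3 (-0.55) and Pcsk2 (-0.94) fell. None of 3 tested exocrine markers was called by edgeR or DESeq2, with 1 at an unadjusted p under 0.05. Among 6 tested markers of stromal, vascular, immune and neural cells, S100b, a marker of glia, rose from 0.0821 to 0.409 CPM. The other members of these lists of 10 and 14 genes were too low to be tested. The library labelled shSmndc1 replicate 3 stood apart: it had the most of the nuclear RNAs Malat1 and Rn7sk. Malat1 had 478, 184 and 461 CPM in controls and 174, 303 and 1083 CPM after knockdown, and Rn7sk 3.29, 2.996 and 4.28 CPM and 4.38, 2.57 and 8.82 CPM, each in the order of replicates 1, 2 and 3. Its part in the results was not tested beyond refitting without it, and fold changes without it are given beside the genes it moves most. Whether replicates were separate cultures is not stated in the labels, and the p-values therefore measure only a spread between libraries that may be technical. In bulk RNA, fewer cells of a kind and less RNA per cell cannot be told apart.

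The targeted gene itself (ENSMUSG00000025024, chromosome 19, 53379390 to 53390578, GRCm38) had 41.9, 40.2 and 35.1 CPM in the EV libraries and 10.4, 9.52 and 10.5 CPM in the shSmndc1 libraries, a fall of 1.94 on the log2 scale (SE 0.13, edgeR adjusted p = 0.00145). Every knockdown library lay far below every control, and the libraries of each group lay close together. Msn, which encodes moesin, a linker of the plasma membrane to actin filaments, had 293, 356 and 310.5 CPM in control cells and 95.8, 63.5 and 27.1 CPM in knockdown cells (-2.36, SE 0.38, edgeR adjusted p = 0.00891). The 3 knockdown values were all below the lowest control but differed among themselves, with replicate 3 lowest, and the fold change was -2.01 without that library. Egr1, an immediate-early transcription factor, had 3.05, 2.26 and 2.40 CPM in the EV libraries and 20.9, 24.1 and 69.8 CPM in the shSmndc1 libraries (3.90, SE 0.47, edgeR adjusted p = 0.00536). Here replicate 3 was the highest, and the fold change was 3.13 without it. The insulin gene Ins2 had 0.123, 0.506 and 0.229 CPM in controls and 2.39, 2.21 and 3.63 CPM after knockdown (3.21, edgeR adjusted p = 0.00750). The groups did not overlap, and even the highest library stayed far below the level of Gcg. Without EV replicate 2 the Ins2 fold change was 3.93. Smndc1 and Egr1 passed in all 6 fits with a library left out, while Msn and Ins2 missed the threshold without EV replicate 3, at edgeR adjusted p = 0.0542 and 0.0556. Per length, Ins2 stood at 0.217 FPKM in EV and 2.06 FPKM in shSmndc1, and Gcg at 4681 and 6928 FPKM, in the authors' deposited values.

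**Figure D1:**
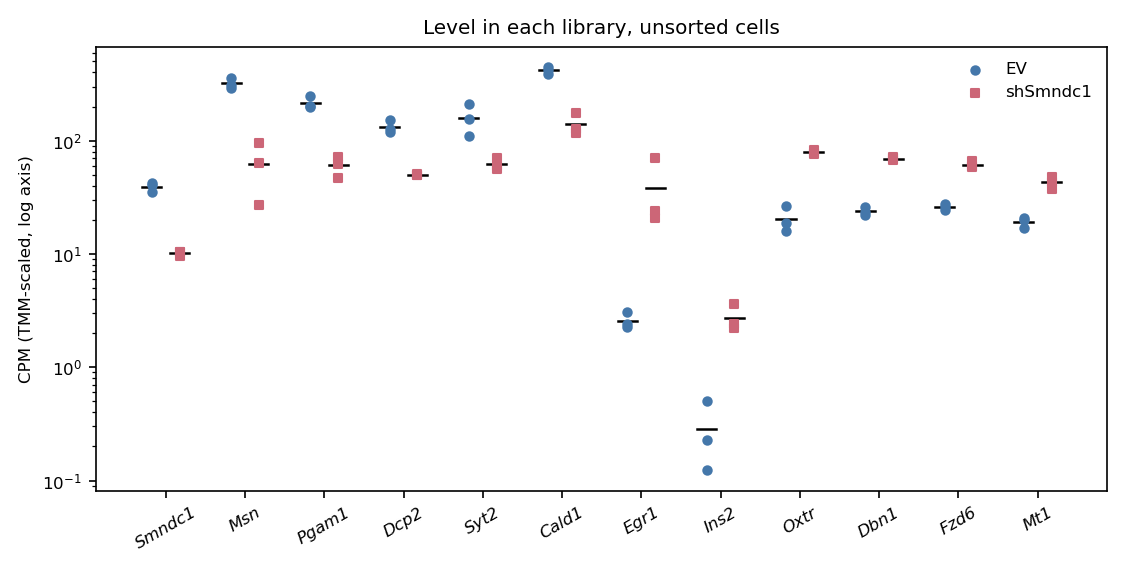
Level of 12 genes in each of the 6 libraries, in CPM on a log axis; circles are EV libraries, squares shSmndc1 libraries, and black lines the means of 3 libraries. For each gene the 3 knockdown libraries lie on the same side of the 3 controls, as they do for nearly every called gene, and only called genes are shown. Egr1 and Msn show the widest spread among knockdown libraries.

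The knockdown left a broad change of moderate size. Of 18202 genes tested, 1315 (7.22%) rose and 1366 (7.5%) fell, together 14.7%, while the groups did not overlap in 39.5% of all tested genes. Among called genes the groups did not overlap for all 1315 that rose and for 1361 of the 1366 that fell. Separate groups therefore come with nearly every call and add little to the calls of single genes. Median fold changes were 0.80 among genes that rose and -0.84 among those that fell, and 506 and 499 of them moved by more than 1 on the log2 scale. In summed CPM, the genes that rose gained 25350 and those that fell dropped by 35166. The count of calls depended on 3 libraries. Of the 2681 called genes, 526 were called in the same direction when EV replicate 2 was left out, 181 when EV replicate 3 was, and 621 when shSmndc1 replicate 2 was. Leaving out shSmndc1 replicate 3, shSmndc1 replicate 1 or EV replicate 1 kept 2448, 2053 and 1892. None was called in the opposite direction in any of these fits. Calls that held in all 6 numbered 68 higher and 105 lower.

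The same genes were then read in the separate libraries of reporter-positive knockdown cells against EV_RIP, where 3286 of 18897 genes (17.4%) were called, 1600 (8.47%) higher and 1686 (8.92%) lower. Of 1250 genes that rose in unsorted cells and were tested there, 652 (52.2%) rose again, and of 1362 that fell, 821 (60.3%) fell again. None was called in the opposite direction, and the sign was the same for 96.5% and 98.4%. The difference between both effects, tested as an interaction over all 18 libraries with edgeR, was called for 0 of 20036 genes, with 861 at an unadjusted p under 0.05. These sorted cells were selected by their insulin reporter, so that differences between them and the unsorted cells cannot be told apart from the sort and from the experiment.

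**Figure D2:**
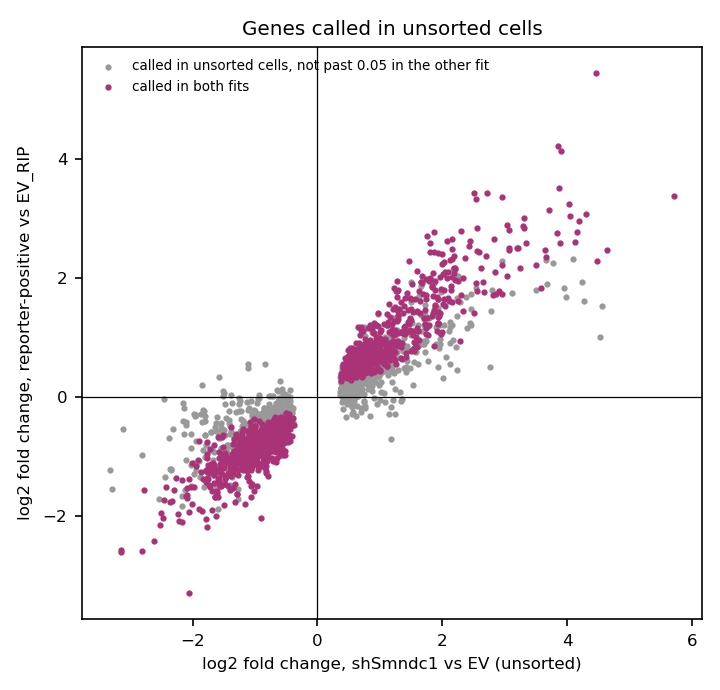
Fold change (log2) of each gene called in unsorted cells, on the x axis, against its fold change in reporter-positive knockdown cells over EV_RIP, on the y axis; each point is 1 gene, coloured where it was called in both fits. Most points lie in the quadrants of equal sign, and grey points near the x axis are genes that did not pass in the reporter-positive libraries.

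Across 64 lists of pathways and gene groups, 305 of 1859 tested members were called, 155 higher and 150 lower, with a median fold change of -0.019 beside -0.0029 for all tested genes. The shares of 8.34% and 8.07% lay near the background of 7.22% and 7.5% of all tested genes. Protein-coding genes alone were called more often, 8.97% higher and 8.63% lower, together 17.6%. Of the 305 calls, 203 were also called in the same direction in reporter-positive cells, and 70, 21 and 90 held without EV replicate 2, EV replicate 3 and shSmndc1 replicate 2. The lists are described by role below, some at the background share and some away from it. Members beyond the rule for naming genes are marked as chosen after their values were seen.

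**Figure D3:**
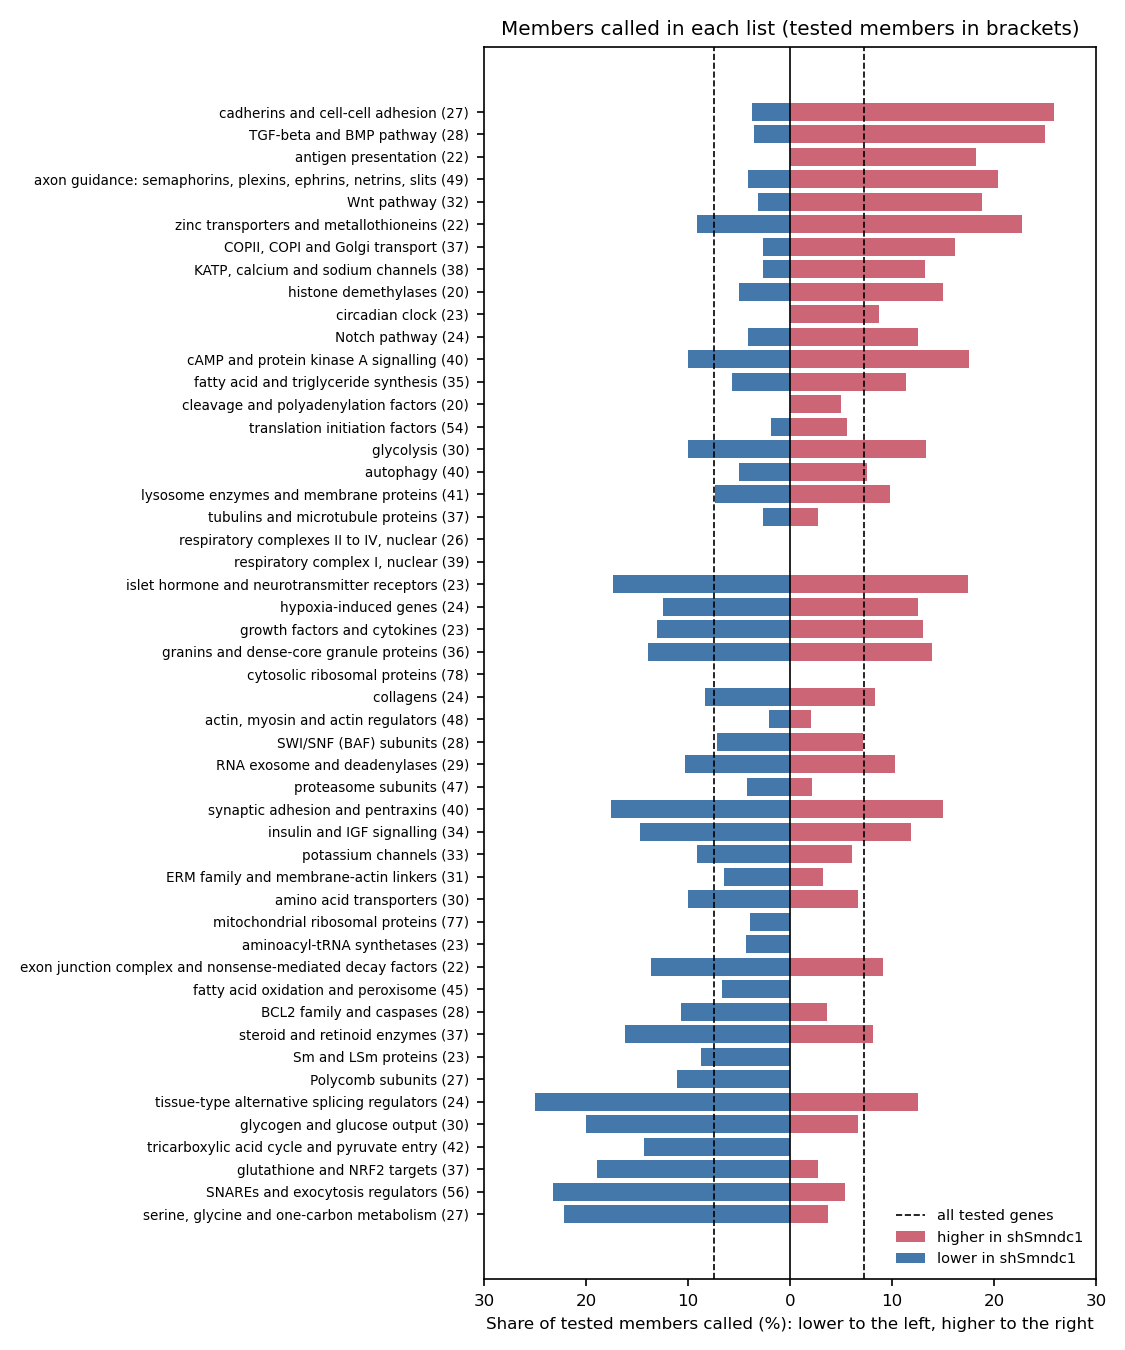
Share of tested members called in each list with at least 20 tested members, in percent, with members higher in shSmndc1 to the right and members lower to the left; dashed lines mark 7.22% and 7.5%, the shares over all tested genes. Cadherins, the TGF-beta and BMP pathway and axon guidance genes extend to the right, and SNAREs, one-carbon metabolism and glutathione genes to the left.

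Genes of regulated exocytosis fell more often than they rose. Of 56 SNAREs and exocytosis regulators, 13 fell and 3 rose, where 7.5% and 7.22% of all genes did, and the median of the list was -0.15. Syt2, a synaptotagmin that senses calcium for vesicle fusion, had 111, 209.9 and 154 CPM in control cells and 70.6, 59.5 and 56.5 CPM in knockdown cells (-1.35, SE 0.22, edgeR adjusted p = 0.00949). The controls ranged widely, with replicate 2 highest, but all stood above the knockdown. Rph3a, which encodes rabphilin, an effector of Rab proteins on vesicles, had 7.12, 13.5 and 7.48 CPM in the EV libraries and 3.21, 1.92 and 1.45 CPM in the shSmndc1 libraries (-2.09, edgeR adjusted p = 0.0109). The t-SNARE gene Stx4a, syntaxin 4, had 24.8, 30.4 and 30.2 CPM in controls and 16.5, 13.9 and 12.4 CPM after knockdown (-0.995, edgeR adjusted p = 0.00836). The groups did not overlap for either. Vamp3, a v-SNARE of recycling endosomes, rose (0.71, from 85.7 to 139.9 CPM). Other members that fell, picked after their values were seen, were the ATPase Nsf (-0.84), the attachment proteins Napb (-1.09) and Napa (-0.52), the t-SNARE Snap25 (-0.86), the priming factor Cadps (-0.61), the syntaxin-binding protein Stxbp2 (-0.72) and the vesicle Rab Rab27b (-1.04). Of the 16 calls, 13 were called in the same direction in reporter-positive cells, 4, 0 and 5 held without EV replicate 2, EV replicate 3 and shSmndc1 replicate 2, and 16 held without shSmndc1 replicate 3.

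Dense-core granule genes moved both ways. Of 36 tested, 5 fell and 5 rose (13.9% each, beside 7.5% and 7.22% of all genes), with a median of -0.26. Ptprn, a transmembrane protein of the granule known as IA-2, had 1073, 1731 and 1422 CPM in control cells and 653, 433 and 545 CPM in knockdown cells (-1.37, edgeR adjusted p = 0.00880), the largest loss in CPM of any called gene. Pcsk2, the convertase that releases glucagon from its precursor, had 1365, 2126 and 1886 CPM and 1207, 937 and 667 CPM (-0.94, edgeR adjusted p = 0.0359). Chga, chromogranin A, had 1722, 1891 and 2192 CPM and 1212, 1104 and 1439 CPM (-0.63). All 3 abundant genes had every knockdown library below every control. Syngr3, a synaptic vesicle protein, rose from 56.3 to 103 CPM (0.87, edgeR adjusted p = 0.00642), and so did Ccdc186 (0.62), which acts in granule maturation. Coat and Golgi transport genes leaned upward: of 37 tested, 6 rose and 1 fell (16.2% and 2.7%). They included the COPII coat genes Sec23a (0.92) and Sec24a (0.82), the COPI subunit Copb1 (0.61) and the cargo protein gene Tmed9, at 103, 111 and 94.0 CPM in the EV libraries and 168, 157 and 177 CPM in the shSmndc1 libraries (0.71, edgeR adjusted p = 0.0101). Of the 10 granule and 7 transport calls, 7 and 2 were called in the same direction in reporter-positive cells. With EV replicate 2 left out 2 and 2 held, with EV replicate 3 left out 0 and 0, and with shSmndc1 replicate 2 left out 2 and 2.

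Ion channels were called at 15.5%, beside 14.7% of all genes and 17.6% of protein-coding genes. Of 38 KATP, calcium and sodium channel genes, 5 rose and 1 fell, the latter Cacna1d, a voltage-gated calcium channel of islet cells (-0.59, edgeR adjusted p = 0.0197). The store-operated entry genes Stim2 (0.53) and, chosen after their values were seen, Stim1 (0.59) and Orai2 (0.89) rose. Of 33 potassium channels, 3 fell and 2 rose. Kcnma1, the large-conductance calcium-activated channel, had 23.5, 15.1 and 23.4 CPM in controls and 9.70, 9.37 and 9.36 CPM after knockdown (-1.12, edgeR adjusted p = 0.0101), and the groups did not overlap. Of these 11 calls in all, 7 recurred in reporter-positive cells, and 4, 2, 1 and 3 held without EV replicates 1, 2 and 3 and shSmndc1 replicate 2.

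Among receptors for hormones and transmitters, 4 of 23 rose and 4 fell (17.4% each, beside 7.22% and 7.5% of all genes). Oxtr, the oxytocin receptor, had 15.96, 26.4 and 18.9 CPM in control cells and 82.2, 77.0 and 77.6 CPM in knockdown cells (1.95, SE 0.18, edgeR adjusted p = 0.00265), and 1.35 in reporter-positive cells (edgeR adjusted p = 0.00192). The 3 knockdown values lay close together, well above the highest control. Prlr, the prolactin receptor, had 137, 203 and 161 CPM in the EV libraries and 76.1, 73.6 and 44.8 CPM in the shSmndc1 libraries (-1.36, edgeR adjusted p = 0.00980). The insulin receptor gene Insr fell from 56.3 to 37.8 CPM (-0.58). Within insulin and IGF signalling, 4 of 34 rose and 5 fell (11.8% and 14.7%). Igfbp4, an IGF-binding protein, had 201, 182 and 231 CPM in controls and 90.7, 51.6 and 35.8 CPM after knockdown (-1.79, edgeR adjusted p = 0.0101), while Igf2r, a receptor that sorts IGF2 and lysosomal enzymes, rose from 161 to 358 CPM (1.15). In cAMP signalling, which links hormone receptors to secretion, 7 of 40 rose and 4 fell. Adenylate cyclases went apart, with Adcy7 (-1.34) and, chosen after its value was seen, Adcy5 (0.95). Phosphodiesterases did too, with Pde3b (0.65) and Pde1a (1.71) against Pde8b (-1.28). Of the 8, 9 and 11 calls in these lists, 4, 6 and 5 recurred in reporter-positive cells. With EV replicate 2 left out 3, 1 and 1 of them held, with EV replicate 3 left out 1, 0 and 0, and with shSmndc1 replicate 2 left out 4, 3 and 2.

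Genes of the TGF-beta and Wnt pathways rose more often than they fell, receptors among them. Of 28 TGF-beta and BMP pathway genes, 7 rose and 1 fell (median 0.18). Acvr1b, the type I activin receptor ALK4, had 38.6, 32.0 and 32.1 CPM in control cells and 62.7, 71.0 and 98.8 CPM in knockdown cells (1.18, edgeR adjusted p = 0.00825), and Acvr2a, a type II receptor, had 28.0, 25.1 and 23.5 CPM and 40.5, 43.0 and 42.5 CPM (0.72, edgeR adjusted p = 0.00993). Neither pair of groups overlapped. The ligand Tgfb2 rose from 1.15 to 3.17 CPM (1.45), and the ligand Bmp7, the fall in the list, went from 43.3 to 26.6 CPM (-0.70). Of 32 Wnt pathway genes, 6 rose and 1 fell (18.8% and 3.12%, median 0.23). Fzd6, a Frizzled receptor, had 24.7, 27.5 and 25.8 CPM in the EV libraries and 66.1, 58.8 and 59.6 CPM in the shSmndc1 libraries (1.24, SE 0.11, edgeR adjusted p = 0.00263). Lrp5, a co-receptor for Wnt ligands, had 18.7, 20.7 and 16.6 CPM and 41.4, 44.4 and 64.1 CPM (1.42, edgeR adjusted p = 0.00606), and the R-spondin receptor gene Lgr4 rose from 31.9 to 58.4 CPM (0.88). All knockdown libraries exceeded all controls for these receptors. In reporter-positive cells Lrp5 and Lgr4 were higher again (0.74 and 0.63), whereas Fzd6 had -0.28 (edgeR adjusted p = 0.661). The difference between both Fzd6 effects, 1.53, did not pass in the interaction test (edgeR adjusted p = 0.998). The fall in the list, Fzd5 (-1.09), chosen after its value was seen, shares 17.8% of its exonic bases with another gene. Of the 8 TGF-beta and 7 Wnt calls, 3 and 2 held without EV replicate 2 and 0 and 2 without EV replicate 3. Without shSmndc1 replicate 2, 5 and 2 held.

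The Notch and Hippo lists held fewer tested genes. Notch genes were called at 16.7%, near the 14.7% of all genes. Of 24 Notch genes, 3 rose, among them Numb (0.86), an inhibitor of Notch, and Maml1 (1.17), its coactivator, and the target gene Heyl fell from 1.14 to 0.239 CPM (-2.21). Of 16 Hippo pathway genes and YAP targets, 4 rose and 1 fell, 31.2% in all beside 28.6% of the TGF-beta and 21.9% of the Wnt list. Growth factor genes included Vegfa, at 57.5, 89.8 and 64.1 CPM in controls and 28.3, 29.7 and 23.1 CPM after knockdown (-1.38, edgeR adjusted p = 0.00606), whose call held in all 6 fits with a library left out and which is also a gene induced by hypoxia. Csf1, which encodes a macrophage growth factor, had 1.99, 0.973 and 2.06 CPM in control cells and 5.24, 5.75 and 30.4 CPM in knockdown cells (3.04), and its fold change was 1.72 without replicate 3. The chemokine gene Cxcl10 stayed low, at 0.0246, 0 and 0.114 CPM in the EV libraries and 0.539, 0.781 and 1.496 CPM in the shSmndc1 libraries (4.30), and had 6.11 without EV replicate 3 and 3.67 without EV replicate 2. Of 17 feedback inhibitors of MAP kinase signalling, 4 rose, Dusp4 from 11.8 to 24.3 CPM among them (1.04), and 3 fell. Over the signalling lists, the insulin list apart, 56 of 203 members were called (27.6%, beside 14.7% of all genes). Of these, 33 recurred in reporter-positive cells. Without EV replicate 2, EV replicate 3 and shSmndc1 replicate 2, 13, 5 and 19 held.

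Axon guidance genes, which encode secreted and membrane-bound cues and their receptors and are also active in islets, rose more often than they fell. Of 49 tested, 10 rose and 2 fell (20.4% and 4.08%, beside 7.22% and 7.5% of all genes). The median of the list was 0.49. Sema6b, a transmembrane semaphorin, had 14.7, 15.3 and 12.7 CPM in controls and 27.1, 25.1 and 35.04 CPM after knockdown (1.03, edgeR adjusted p = 0.00875). Plxnd1, a semaphorin receptor, had 17.3, 14.7 and 15.9 CPM and 24.6, 32.2 and 34.5 CPM (0.93, edgeR adjusted p = 0.0104). Both were higher in every knockdown library. At lower levels, the secreted semaphorin gene Sema3f rose from 0.808 to 2.40 CPM (1.57) and the netrin receptor gene Dcc from 0.414 to 1.62 CPM (1.97). Other risers, chosen after their values were seen, were the plexins Plxnb2 (0.81) and Plxna2 (0.65), Sema4b (0.99), the ephrin Efna2 (1.55) and the receptor Ephb2 (0.66). The semaphorins Sema3e (-0.84) and Sema6d (-0.62) fell. Of the 12 calls, 7 recurred in reporter-positive cells, 7, 3, 0 and 6 held without EV replicates 1, 2 and 3 and shSmndc1 replicate 2, and 11 held without shSmndc1 replicate 3.

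**Figure D4:**
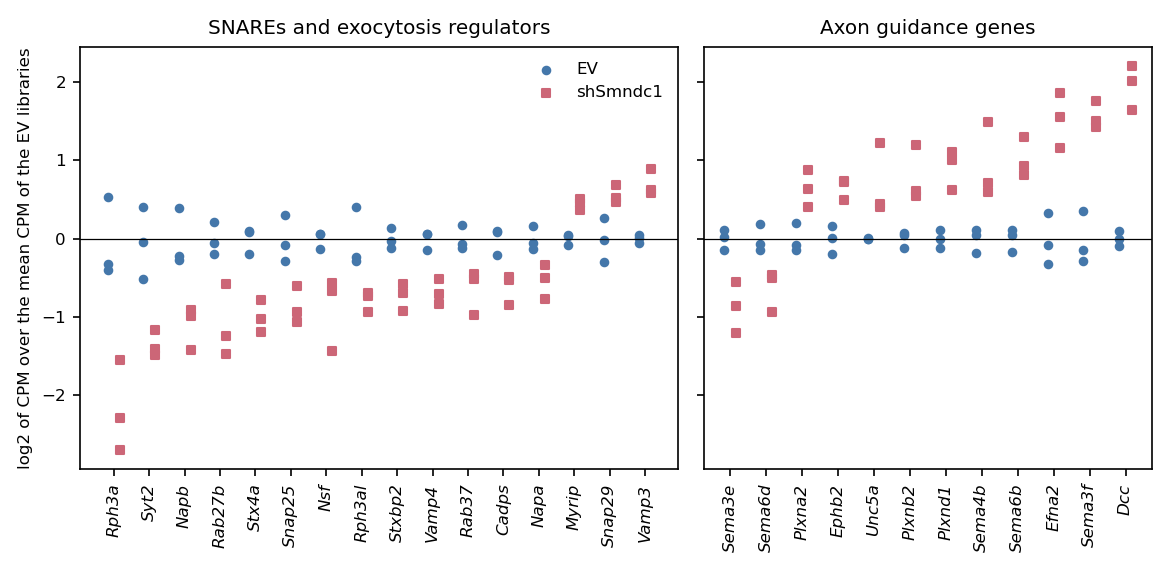
Called members of the exocytosis list (left) and the axon guidance list (right), 1 column per gene; the y axis is the log2 ratio of each library's CPM to the mean CPM of the 3 EV libraries. Circles are EV libraries and squares shSmndc1 libraries. Only called members are shown, and nearly every called gene has separate groups, so the separation within columns follows from that choice. The squares lie below the circles for most of these exocytosis genes, and above for most of these guidance genes.

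Cell-cell adhesion genes followed the same direction. Of 27 cadherins and junction genes, 7 rose and 1 fell (25.9% and 3.7%, beside 7.22% and 7.5% of all genes). The median was 0.24. Cadm4, an adhesion molecule of the immunoglobulin family, had 20.1, 16.2 and 21.1 CPM in control cells and 39.8, 45.5 and 47.7 CPM in knockdown cells (1.22, edgeR adjusted p = 0.00525), and the tight junction scaffold gene Tjp1 rose from 42.6 to 80.7 CPM (0.92). Cldn12, a claudin, fell, with 93.0, 92.7 and 84.0 CPM and 51.9, 47.9 and 34.0 CPM (-1.01). Synaptic adhesion genes split, with 6 of 40 higher and 7 lower. Nptx1, neuronal pentraxin 1, had 18.1, 38.0 and 39.2 CPM in the EV libraries and 6.73, 3.82 and 6.14 CPM in the shSmndc1 libraries (-2.52, edgeR adjusted p = 0.00606), and Tenm4, a teneurin, had 69.6, 91.8 and 99.0 CPM and 36.0, 29.0 and 43.3 CPM (-1.27, edgeR adjusted p = 0.00722). Ptprf, a receptor phosphatase of synapses, rose from 73.6 to 133 CPM (0.85). In the matrix, Col6a1 had 1.25, 1.15 and 1.21 CPM in controls and 5.30, 5.90 and 8.82 CPM after knockdown (2.47, edgeR adjusted p = 0.00383) and its partner chain Col6a2 rose from 0.460 to 1.51 CPM (1.72), while Col27a1 (-1.12) and Col8a1 (-2.23) fell. Col8a1 had -1.52 without EV replicate 3 and then missed the threshold. The laminin gene Lamc1 rose from 53.5 to 109 CPM (1.03). Among integrins, Itga2b (-0.91) and Itgav (-0.61) fell and Itgb7 (2.96) rose. Over the adhesion lists, 42 of 166 members were called, 28 higher and 14 lower (16.9% and 8.43%). Of these, 25 recurred in reporter-positive cells, and 15, 3 and 20 held without EV replicate 2, EV replicate 3 and shSmndc1 replicate 2.

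Among cytoskeletal genes, Msn and Flna were the leading falls. Of 129 tested, 3 rose and 5 fell with edgeR (2.33% and 3.88%). This low count depended on the tool and filter: DESeq2 called 15 higher and 12 lower, beside 2027 and 2043 of all 18202 genes, and edgeR without the filter 13 and 18. Flna, which encodes filamin A, a crosslinker of actin and the membrane, had 396, 354 and 410.2 CPM in control cells and 198, 167 and 157 CPM in knockdown cells (-1.15, edgeR adjusted p = 0.00534), and like Msn had no overlap between the groups. Per length, Msn fell from 82.9 to 16.01 FPKM in the deposited values, while the related ERM gene Rdx stood at 31.0 and 24.7 FPKM (log2 fold change -0.31, edgeR adjusted p = 0.262). Outside this list, Cald1, caldesmon, an actin-binding regulator, had 389.5, 445 and 423 CPM and 176, 126 and 117 CPM (-1.58, edgeR adjusted p = 0.00433), and Dbn1, drebrin, which binds actin filaments, had 26.2, 23.2 and 21.99 CPM and 71.7, 70.1 and 66.9 CPM (1.55, SE 0.12, edgeR adjusted p = 0.00145). Dbn1 rose in every knockdown library by a similar amount and passed in all 6 fits with a library left out.

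Metabolic genes fell more often than they rose, 47 against 24 of 363 tested (12.9% and 6.61%, beside 7.5% and 7.22% of all genes). In glycolysis, 4 of 30 rose and 3 fell. Pgam1, phosphoglycerate mutase, had 202, 247 and 199 CPM in the EV libraries and 72.2, 62.1 and 46.8 CPM in the shSmndc1 libraries (-1.84, edgeR adjusted p = 0.00290). Its processed pseudogene Pgam1-ps2, whose near-identical sequence can share reads with it, fell alongside from 64.3 to 16.2 CPM (-1.98). Eno3, the muscle enolase, had 4.79, 3.56 and 4.69 CPM in controls and 22.9, 16.6 and 17.6 CPM after knockdown (2.13, edgeR adjusted p = 0.00263). Per length it reached only 11.99 FPKM, beside 216 FPKM of the general enolase Eno1 in the knockdown. In reporter-positive cells Eno3 had 0.55 (edgeR adjusted p = 0.0991), and the difference of 1.59 did not pass the interaction test (edgeR adjusted p = 0.789). Aldoa, aldolase A, had 979, 1533 and 998 CPM in control cells and 762, 686 and 439 CPM in knockdown cells (-0.90, edgeR adjusted p = 0.0428).

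Glycogen and glucose output genes leaned downward, with 6 of 30 lower and 2 higher (median -0.30). Gys2, the liver form of glycogen synthase, had 13.6, 16.1 and 23.5 CPM in the EV libraries and 5.09, 3.65 and 3.04 CPM in the shSmndc1 libraries (-2.17, edgeR adjusted p = 0.00536). Phkb, a subunit of phosphorylase kinase, fell from 42.4 to 22.6 CPM (-0.91), the gluconeogenic gene Fbp1 from 52.2 to 23.9 CPM (-1.12) and mitochondrial PEP carboxykinase, Pck2, from 128 to 49.4 CPM (-1.38). Of 42 genes of the tricarboxylic acid cycle and pyruvate entry, 6 fell and 0 rose. The called share of 14.3% lay near the 14.7% of all genes called in either direction. By direction it was 14.3% lower and 0% higher, beside 7.5% and 7.22% of all genes. Ogdhl, a subunit of an oxoglutarate dehydrogenase complex, had 139, 175 and 170.4 CPM in controls and 103, 78.8 and 78.3 CPM after knockdown (-0.90, edgeR adjusted p = 0.0111), and Idh2 (-0.90) and Dlat (-0.59) fell with it. Without EV replicates 1, 2 and 3, 8, 2 and 1 of the 8 glycogen calls and 5, 1 and 0 of the 6 cycle calls held, and without shSmndc1 replicate 2, 3 and 1. In reporter-positive cells, 7 and 5 recurred.

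Serine, glycine and one-carbon genes, which feed methyl groups into nucleotide synthesis and methylation, fell in 6 of 27 cases and rose in 1. These shares were 22.2% and 3.7%, beside 7.5% and 7.22% of all genes, and the median was -0.31. Shmt2, the mitochondrial serine hydroxymethyltransferase, had 242, 380.1 and 304 CPM in control cells and 178, 135 and 115 CPM in knockdown cells (-1.11, edgeR adjusted p = 0.0141). Ahcyl1 (-0.78) and the methionine synthase gene Mtr (-0.55) fell too, and, chosen after its value was seen, the serine synthesis gene Psat1 (-0.91). The folate carrier gene Slc25a32 rose from 42.6 to 70.4 CPM (0.72). Glutathione and NRF2 target genes fell in 7 of 37 cases and rose in 1 (18.9% and 2.7%). The rise was the ferritin light chain gene Ftl1 (0.56), which shares 26.5% of its exonic bases with another gene. Txnrd2, the mitochondrial thioredoxin reductase, had 43.3, 57.6 and 51.0 CPM in the EV libraries and 32.2, 26.2 and 24.8 CPM in the shSmndc1 libraries (-0.87, edgeR adjusted p = 0.0121), and the glutathione transferases Gstz1 (-0.96) and Gstm1 (-1.02) fell. Of 30 amino acid transporters, 3 fell and 2 rose, a called share of 16.7%, near the 14.7% of all genes. Slc7a1, the cationic amino acid transporter CAT1, had 154, 242 and 198 CPM in controls and 80.4, 85.6 and 83.6 CPM after knockdown (-1.25, edgeR adjusted p = 0.00606). Steroid and retinoid enzymes fell in 6 of 37 cases and rose in 3 (16.2% and 8.11%). Hsd17b7, a reductase of steroid and cholesterol synthesis, had 72.3, 88.1 and 67.2 CPM and 31.3, 24.05 and 21.2 CPM (-1.57, edgeR adjusted p = 0.00443). Over all metabolic lists 52 of 71 calls recurred in reporter-positive cells, and 18, 9 and 21 held without EV replicate 2, EV replicate 3 and shSmndc1 replicate 2, against 62 without shSmndc1 replicate 3.

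Zinc handling genes rose in 5 of 22 cases and fell in 2 (22.7% and 9.09%, beside 7.22% and 7.5% of all genes). Metallothioneins are small cysteine-rich proteins that bind zinc and copper, and the transcription factor MTF1 turns on their genes when zinc is in excess. Mt1 (ENSMUSG00000031765, chromosome 8, 94179082 to 94180327, GRCm38) had 20.1, 20.8 and 17.1 CPM in control cells and 43.1, 48.0 and 37.2 CPM in knockdown cells (1.15, SE 0.14, edgeR adjusted p = 0.00545), and Mt2 had 2.186, 2.41 and 1.60 CPM and 6.68, 7.24 and 5.86 CPM (1.67, SE 0.22, edgeR adjusted p = 0.00611). Both rose in every knockdown library, in all 6 fits with a library left out and in reporter-positive cells (1.56 and 1.92), but 73.5% of the exonic bases of Mt2 lie opposite Gm45774. That antisense gene had nearly the same values, 2.186, 2.37 and 1.65 CPM in controls and 6.73, 7.26 and 5.73 CPM after knockdown (1.67, and 1.94 in reporter-positive cells), so that reads of Mt2 and Gm45774 cannot be told apart. Mtf1 itself rose from 43.1 to 73.9 CPM (0.78), the Golgi zinc importer gene Slc30a7 from 46.7 to 82.4 CPM (0.82), and Slc30a8, the zinc transporter of islet granules, fell from 379 to 230.4 CPM (-0.72). Slc30a1, another textbook target of MTF1, did not pass (0.21, edgeR adjusted p = 0.317). The promoter windows of both metallothioneins are shown because the genes lie beside each other and moved together. They run from 250 bases before to 50 bases after the RefSeq start, at chr8:94178839-94179138 and chr8:94172368-94172667 on the plus strand of GRCm38.p6, and capitals mark every match, on either strand, to the core of the metal response element, TGCACNC or TGCGCNC.
Mt1 promoter: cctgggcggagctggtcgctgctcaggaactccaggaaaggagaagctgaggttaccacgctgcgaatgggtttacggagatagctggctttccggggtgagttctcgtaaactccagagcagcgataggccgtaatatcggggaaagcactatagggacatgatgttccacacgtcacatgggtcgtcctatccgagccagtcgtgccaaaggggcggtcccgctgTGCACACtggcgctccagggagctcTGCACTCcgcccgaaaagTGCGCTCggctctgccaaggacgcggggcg
Mt2 promoter: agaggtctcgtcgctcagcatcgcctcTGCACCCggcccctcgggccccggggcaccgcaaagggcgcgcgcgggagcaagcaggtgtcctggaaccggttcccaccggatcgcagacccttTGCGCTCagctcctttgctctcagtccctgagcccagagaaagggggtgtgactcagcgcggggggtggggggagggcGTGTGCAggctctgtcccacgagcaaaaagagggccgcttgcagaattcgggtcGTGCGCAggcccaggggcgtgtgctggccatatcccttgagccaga
The Mt1 window holds 3 matches and the Mt2 window 4. Among 32851 RefSeq promoter windows of the same length, 25.7% hold at least 1 match, 1.97% at least 3 and 0.517% at least 4, and a match is a description of the letters, not a binding site. In the same scan of the zinc list, Mtf1 and Slc30a7, which rose, had 0 matches. Slc30a1 had 2 and Slc30a4 3, and neither passed, with log2 fold changes of 0.21 and 0.37. Slc30a10, which did not pass the filter on low counts, had 3.

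Of 144 RNA processing genes, 11 rose and 15 fell (7.64% and 10.4%, beside 7.22% and 7.5% of all genes). Regulators of tissue-type alternative splicing gave 9 of these 26 calls, 3 higher and 6 lower of 24. Qk, the quaking RNA-binding protein, had 102, 62.5 and 67.8 CPM in the EV libraries and 183, 192 and 161 CPM in the shSmndc1 libraries (1.21, edgeR adjusted p = 0.00874), while the CELF proteins Celf4 (-0.86) and Celf6 (-0.71) fell. Dcp2, the enzyme that removes the cap of mRNAs, had 152, 127 and 119.7 CPM in controls and 50.4, 50.2 and 49.4 CPM after knockdown (-1.41, SE 0.12, edgeR adjusted p = 0.00263). The 3 knockdown libraries lay close to each other, and its call held in all 6 fits with a library left out. Of 23 Sm and LSm proteins, Lsm2 fell from 31.8 to 16.99 CPM (-0.90) and Lsm3 from 45.9 to 24.9 CPM (-0.88), and none rose. None of 14 spliceosomal helicases passed with edgeR, with 6 at an unadjusted p under 0.05 and 2 called by DESeq2. Proteins of the minor spliceosome, which removes U12-type introns, gave 3 calls of 13: Ccdc84 (0.67), Snrnp48 (0.66) and Snrnp35 (-0.80). Nonsense-mediated decay factors split into 2 higher, Upf2 (0.48) and Smg8 (0.49), and 3 lower, among them Upf3b (-0.84) and Nbas (-0.69). Of the 26 calls, 17 recurred in reporter-positive cells, and 17, 2, 1 and 2 held without EV replicates 1, 2 and 3 and shSmndc1 replicate 2.

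Of 105 chromatin genes, 7 rose and 10 fell (6.67% and 9.52%), near the background of 7.22% and 7.5%. Smarcd2, a subunit of the SWI/SNF remodeller, had 54.8, 50.1 and 51.5 CPM in control cells and 91.5, 101 and 141 CPM in knockdown cells (1.09, edgeR adjusted p = 0.00822), and Smarcc1 (-1.01) and Smarca2 (-0.72) of the same complex fell. Ring1, a ubiquitin ligase of Polycomb complexes, had 46.9, 62.0 and 57.5 CPM and 34.2, 31.4 and 31.5 CPM (-0.78, edgeR adjusted p = 0.0111), and Aebp2 (-0.51) and Pcgf3 (-0.73) fell, the 3 calls of 27 Polycomb genes. Among 18 deacetylases and sirtuins, the sirtuin Sirt1 rose from 25.8 to 42.8 CPM (0.73), and Sirt2 (-0.63), Hdac8 (-0.81) and Hdac11 (-0.59) fell. The histone demethylases Kdm5b (1.77), Phf2 (0.73) and Jmjd6 (0.63) rose and Kdm7a (-0.54) fell. In reporter-positive cells 12 of the 17 chromatin calls recurred, and 3, 0 and 4 held without EV replicate 2, EV replicate 3 and shSmndc1 replicate 2.

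The translation and respiration machinery gave almost no calls. None of 78 cytosolic ribosomal protein genes (median -0.078) and none of 82 nuclear genes of the respiratory chain and ATP synthase (median -0.047) passed with edgeR. At an unadjusted p under 0.05 edgeR found 10 and 7 of them, and DESeq2 called 4 and 3. Of 77 mitochondrial ribosomal proteins 3 fell (2 higher and 7 lower with DESeq2), of 47 proteasome genes 2 fell and 1 rose, and of 54 initiation factors 3 rose, among them the kinase gene Eif2ak3, PERK, from 86.3 to 159 CPM (0.89), and 1 fell. Lysosomal genes split, 4 higher and 3 lower of 41, with the cholesterol exporter Npc1 (0.57) against the hydrolases Galns (-1.05) and Naglu (-0.97). Outside any list, 4 genes tied to mTOR signalling were picked after their values were seen, so they stand for themselves only. Rragd, a Rag GTPase, had 51.4, 38.1 and 41.9 CPM in the EV libraries and 93.6, 112 and 107 CPM in the shSmndc1 libraries (1.25, edgeR adjusted p = 0.00460). Folliculin, Flcn, had 53.7, 44.6 and 43.1 CPM and 87.6, 86.5 and 99.5 CPM (0.95), and its partner Fnip1 68.7, 68.3 and 60.9 CPM and 116, 132 and 139 CPM (0.97). Deptor, an inhibitor within mTOR complexes, fell from 211 to 88.1 CPM (-1.26).

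Cell death genes were called in 4 of 28 cases (14.3%), beside 14.7% of all genes and 17.6% of protein-coding genes. Bak1, a pore-forming inducer of apoptosis, had 24.95, 14.7 and 17.96 CPM in controls and 47.6, 53.5 and 50.5 CPM after knockdown (1.40, edgeR adjusted p = 0.00628), with 25.5% of its exonic bases shared with another gene. The inhibitors of death Cflar (-0.97) and Bcl2 (-1.06) fell, and so did the caspase Casp2 (-0.79), and all 4 calls recurred in reporter-positive cells. Antigen presentation genes rose in 4 of 22 cases (18.2%, beside 7.22% of all genes) and fell in 0 (median 0.70). B2m, the light chain of MHC class I, had 5.70, 5.19 and 6.89 CPM in control cells and 10.7, 12.5 and 15.5 CPM in knockdown cells (1.12, edgeR adjusted p = 0.0116), and the peptide transporter gene Tap2 had 7.12, 7.99 and 7.12 CPM and 11.6, 18.3 and 25.4 CPM (1.31). Replicate 3 was the highest knockdown library for both, and they had 0.97 and 1.01 without it. Of 23 clock genes, Nr1d1 (1.25), which encodes the repressor REV-ERB alpha, and Arntl (0.63) rose. Without EV replicate 2, EV replicate 3 and shSmndc1 replicate 2, 3, 2 and 2 of the cell death calls, 0, 0 and 2 of the antigen presentation calls and 0, 0 and 1 of the 2 clock calls held.

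With the called genes ranked by change in CPM rather than by fold, the largest losses included secretory and metabolic transcripts and the gains were a mixed set. After Ptprn, Pcsk2, Chga and Aldoa, the losses were in the reductase gene Cyb5r3, at 563, 652 and 619.8 CPM in the EV libraries and 303, 229.8 and 118 CPM in the shSmndc1 libraries (-1.50), in the chloride channel family gene Ttyh1 (-1.11), the matrix protein Smoc1 (-1.04), Cald1 and the pyrimidine synthesis enzyme Cad (-0.74). The gene 2610507B11Rik had 447, 445 and 463 CPM and 159.7, 159 and 157 CPM (-1.51, SE 0.11, edgeR adjusted p = 0.00145), and the library values within each group were close together. The gains of called genes were led by Prpf8, the core protein of the spliceosome, at 605, 562 and 601 CPM in controls and 829, 903 and 850.3 CPM after knockdown (0.55, edgeR adjusted p = 0.0240). Other gains were in Ftl1, Sesn3 (0.58), Ank (0.69), Igf2r, Stac2 (0.59), the sialomucin Cd164 (0.94), Rgs4 (0.97), a regulator of G protein signalling, Pde3b and the kinesin Kif18b (0.73).

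By smallest p, the leading genes included several not in any pathway list. Rcn3, a calcium-binding protein of the endoplasmic reticulum, had 0.196, 0.253 and 0.206 CPM in control cells and 2.98, 3.35 and 2.41 CPM in knockdown cells (3.72, edgeR adjusted p = 0.00238), and Fkbp14, a prolyl isomerase of the same compartment, had 11.2, 10.4 and 10.9 CPM and 29.4, 27.6 and 38.0 CPM (1.55, edgeR adjusted p = 0.00345). Bach2, a transcriptional repressor, had 6.09, 6.01 and 6.06 CPM and 16.5, 18.6 and 19.1 CPM (1.58, edgeR adjusted p = 0.00263). All of them rose in each library. On the other side, the glycosyltransferase gene Poglut1, which modifies Notch, had 65.9, 82.2 and 78.5 CPM in the EV libraries and 30.1, 27.8 and 25.9 CPM in the shSmndc1 libraries (-1.44, edgeR adjusted p = 0.00263). The ubiquitin pathway genes Asb13, Fbxl16 and Ube2z fell by log2 fold changes of -1.74, -1.39 and -1.43, from 31.5, 133 and 296 CPM. Their calls, like those of Tmem106c (-1.68) and Ostf1 (-1.71), held in all 6 fits with a library left out. Wdr83os (-2.30) fell as well, but 52.3% of its exonic bases lie opposite another gene.

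Gene families and classes showed shares that differed from the background of 7.22% higher and 7.5% lower. Of 52 ubiquitin-specific proteases, which remove ubiquitin from proteins, 16 rose and 1 fell (median 0.23). The rises include 5 Usp17l genes, a family of near-identical copies whose reads cannot be assigned with certainty, such as Usp17le, at 0.467, 0.0973 and 0.183 CPM in controls and 3.06, 3.64 and 4.69 CPM after knockdown, with a fold change of 3.96, or 4.74 without EV replicate 1. Genes this low in controls pass the filter on low counts mainly through the knockdown libraries, which favours rises over falls. Among the other proteases, Usp38 rose from 39.2 to 67.6 CPM (0.79) and, chosen after their values were seen, Usp32 (0.62), Usp30 (0.62) and Usp44 (1.62), and Usp20 (-0.72) fell. Zinc finger genes named Zfp rose in 41 of 357 cases and fell in 11, led by Zfp354c, from 19.7 to 39.0 CPM (0.98). Receptors named Gpr or Adgr rose in 8 of 47 cases and fell in 3, with the adhesion receptors Adgra2 (1.11) and Adgrb2 (1.14) in front, and forkhead factors rose in 5 of 25 and fell in 2. WD repeat genes went the other way, with 8 lower and 2 higher of 56. None of 57 named small nucleolar RNAs passed with edgeR or DESeq2, with 5 at an unadjusted edgeR p under 0.05. The libraries were made from polyadenylated RNA, so these values say little about RNAs without a poly(A) tail. The wider annotated snoRNA class of 128, which includes predicted genes, had 2 rises, Gm25767 (0.68) and Gm25500 (1.89), and 1 fall, Gm24853 (-1.10). All 3 lie wholly within exons of other genes on the same or the opposite strand, and 0, 0 and 0 of these calls held without EV replicate 2, EV replicate 3 and shSmndc1 replicate 2. Of the 17 protease and 52 Zfp calls, 12 and 24 recurred in reporter-positive cells. Leaving out EV replicate 2 kept 7 and 2 of them, leaving out EV replicate 3 kept 2 and 1, and leaving out shSmndc1 replicate 2 kept 6 and 4.

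Long intergenic RNAs fell more often than they rose, 69 against 14 of 608 (11.3% and 2.30%, median -0.28), whereas protein-coding genes were even, at 8.97% higher and 8.63% lower. The intergenic RNA Gm13373 had 184, 247 and 231 CPM in control cells and 103, 96.5 and 89.3 CPM in knockdown cells (-1.20, edgeR adjusted p = 0.00528), and 5330434G04Rik had 11.3, 13.5 and 13.3 CPM and 3.51, 2.52 and 4.11 CPM (-1.92). Paupar, a nuclear RNA transcribed beside Pax6 and chosen after its value was seen, fell from 7.11 to 2.46 CPM (-1.53). Unprocessed pseudogenes gave 15 rises and 0 falls of 130 (11.5% higher, beside 7.22% of all genes). Among them was Zscan4a of the Zscan4 cluster, which had 0.196, 0.0973 and 0.0686 CPM in the EV libraries and 3.08, 3.83 and 1.47 CPM in the shSmndc1 libraries (4.53). Pseudogenes as low in controls as Zscan4a pass the filter on low counts mainly through the knockdown libraries, which favours rises over falls. Above a mean of 5 CPM, where fewer genes were tested, 0 of the class rose and 0 fell. In reporter-positive cells Zscan4a had 1.01 (edgeR adjusted p = 0.350), and 2 of 8 pseudogene calls tested there recurred. Of all 15 calls, 3, 2 and 5 held without EV replicate 2, EV replicate 3 and shSmndc1 replicate 2. Zscan4 genes are active in early mouse embryos, and reads of their copies cannot be assigned with certainty. Chromosome X carried 66 falls and 24 rises among 605 tested genes, 10.9% and 3.97%, with a median of -0.13, and holds Msn and Flna. Its calls held in 20, 7 and 24 of 90 cases without EV replicate 2, EV replicate 3 and shSmndc1 replicate 2, and those of lincRNAs in 22, 8 and 20 of 83. Protein-coding genes that span over 100 kb fell in 13.4% and rose in 7.65% of 1830 cases, while those under 5 kb fell in 5.97% and rose in 9.24% of 1558 cases. Introns of protein-coding genes were counted in the longest annotated transcript, so a gene with 0 there can be spliced in other transcripts. Shares by that count lay closer to each other. The 779 genes with 0 introns by that count rose in 7.32% and fell in 7.57% of cases. The 1528 with over 20 rose in 7.66% and fell in 10.4%. Intronless genes as such were not singled out.

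**Figure D5:**
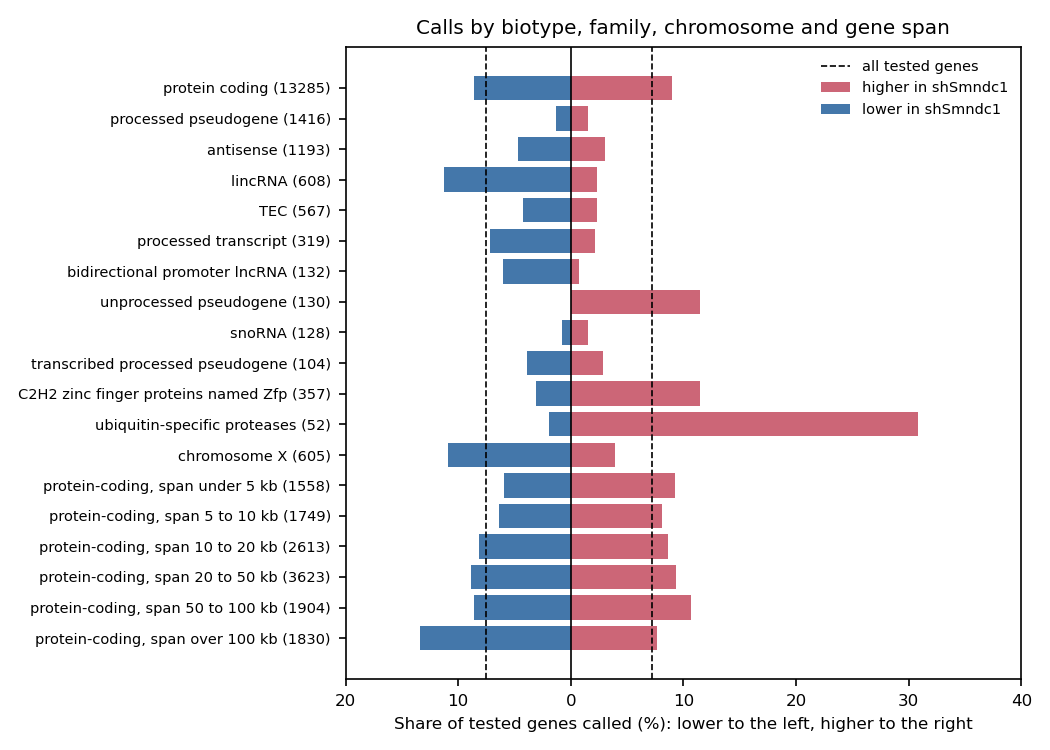
Share of tested genes called in each class, in percent, with genes higher in shSmndc1 to the right and lower to the left; classes are biotypes with at least 100 tested genes, 2 gene families, chromosome X and protein-coding genes by genomic span, with tested genes in brackets. Dashed lines mark 7.22% and 7.5%; the bar of ubiquitin-specific proteases reaches furthest to the right, and genes spanning over 100 kb furthest to the left.

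The library kit keeps strand, but the strand setting of the counting is not given in the sources used here, so that reads of overlapping genes may be shared. Beside those marked above, the named genes with over 10% of their exonic bases under another gene were Usp38 (20.5%), Tap2 (18.5%), Hdac11 (17.9%), Rcn3 (16.9%), Gm45774 (16.2%), Slc30a7 (16.01%) and Gstz1 (12.2%).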

How the data were processed

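Polyadenylated RNA of 6 alphaTC1 libraries, and of 12 libraries with the reporter, was sequenced as 75 bp paired-end reads. The submitters' processing notes name GRCm38/mm10 with DESeq2 1.30.0, Picard 2.19.2 and STAR 2.7.5a. The role of each, the counting tool and its use of strand were not given in the sources used here. The authors deposited raw counts per gene and FPKM values, and FPKM was used here only to compare levels between genes.

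Each experiment was fitted on its own counts with edgeR 4.0.16 in R 4.3.3 (low counts removed with filterByExpr, TMM scaling, quasi-likelihood test, Benjamini-Hochberg adjustment over all tested genes, threshold 0.05). The unsorted libraries covered 55487 genes, of which 18202 were tested. Per-library totals ran from 37233208 to 66676008, and precision was limited by the 3 libraries a group. In simulated counts on the 18202 genes of shSmndc1 against EV, 200 genes were changed, all with a mean count of at least 100. Of these changes, 100% of 4-fold and 77% of 2-fold ones were recovered, with 11 false calls. Changes at lower counts and a single deviating library were not simulated, so recovery there is not known. Overlaps, introns and spans came from GENCODE M21, and promoter sequences from RefSeq.

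Members and lists were chosen with earlier results of these data known. Genes were named by rule: the markers Smndc1, Ins2, Egr1 and Msn, among called genes the 10 largest gains and 10 largest losses in CPM and the 10 smallest p-values in each direction, and, by smallest p, up to 4 called members per list and 3 per family and, in each direction, per non-coding class. For a list without a call the rule gave its 2 most abundant members. Alternatives were RLE scaling, DESeq2 1.42.0, no filter, a mean of at least 5 CPM, a replicate block, and leaving out each library. Results of some genes are not reported here.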

Additional observations from a re-analysis of the deposited data

How the results depend on the processing

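Of the 2681 calls, 2665 were called in the same direction with RLE scaling, 2662 with DESeq2, 2505 without a filter on low counts and 1972 above a mean of 5 CPM, where fewer genes were tested. The count of genes that rose, 1315, was 2027 with DESeq2 and 2024 without the filter, and that of genes that fell, 1366, was 2043 with DESeq2 and 2141 without the filter. Leaving out each library in turn gave 71 to 1547 genes higher and 110 to 1789 lower, lowest without EV replicate 3 (71 and 110), EV replicate 2 (249 and 301) and shSmndc1 replicate 2 (337 and 290). In reporter-positive cells the 1600 higher and 1686 lower calls ranged from 646 to 2175 and from 612 to 2071. They were lowest without reporter-positive replicate 2 and highest without reporter-negative replicate 1, which shares the fit. The cause was not tested. Same-numbered unsorted libraries deviated from their group means with correlations of -0.016, -0.020 and 0.34, the last the highest of any pair across the groups. Whether same-numbered libraries share a block cannot be told from so few pairs. The replicate block gave 1343 higher and 1470 lower. In the reporter experiment the replicate block gave 2508 and 2571, with same-number correlations of 0.19, 0.52, -0.097 and -0.045. Of these, 0.52 was the highest of any pair across the EV_RIP and reporter-positive groups. Of 344 named genes called, 68 held without EV replicate 3 and 330 without shSmndc1 replicate 3, and no named gene reversed under any alternative run.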

Other observations

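Genes induced by hypoxia split, with 3 of 24 higher and 3 lower (12.5% each, beside 7.22% and 7.5% of all genes). Ero1l, an oxidase of the endoplasmic reticulum that drives disulphide formation, had 31.9, 33.8 and 35.6 CPM in the EV libraries and 17.9, 17.02 and 13.2 CPM in the shSmndc1 libraries (-1.07, edgeR adjusted p = 0.00642). P4ha2, a prolyl hydroxylase that acts on collagen, had 61.4, 87.2 and 60.6 CPM and 146, 141 and 139.7 CPM (1.03, edgeR adjusted p = 0.00825), with the knockdown libraries close together and above every control. Of the 6 calls, 3 recurred in reporter-positive cells, and 3, 2 and 3 held without EV replicate 2, EV replicate 3 and shSmndc1 replicate 2. Genes of fatty acid and triglyceride synthesis rose in 4 of 35 cases and fell in 2, and those of fatty acid oxidation and peroxisomes fell in 3 of 45 and rose in 0. Elovl4, an elongase of very long fatty acids, rose from 22.1 to 38.3 CPM (0.79), and Pex7, a receptor that brings enzymes into peroxisomes, fell from 13.05 to 5.80 CPM (-1.17). Without EV replicate 2, EV replicate 3 and shSmndc1 replicate 2, 1, 0 and 1 of the 6 synthesis calls and 0, 0 and 1 of the 3 oxidation calls held.

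Autophagy genes gave 5 calls of 40 (12.5%, beside 14.7% of all tested genes). Atg14, a subunit of the kinase complex that starts autophagosomes, rose from 14.1 to 23.5 CPM (0.74), and Atg10, an enzyme of the ATG12 conjugation system, fell from 5.93 to 2.52 CPM (-1.23). Of the 5 calls, 4 recurred in reporter-positive cells, and 0, 0 and 0 held without EV replicate 2, EV replicate 3 and shSmndc1 replicate 2. Of 29 genes of the RNA exosome and of deadenylation, 3 rose and 3 fell: the CCR4-NOT genes Cnot4 (0.56), Cnot8 (0.44) and, chosen after its value was seen, Cnot6 (0.43) rose, and the deadenylase Parn (-0.55) fell with Dcp2 and Exosc5 (-0.56), the last chosen after its value was seen. In the matrix, Spp1, osteopontin, had 4.99, 4.03 and 3.09 CPM in controls and 14.8, 20.1 and 9.25 CPM after knockdown (1.87, edgeR adjusted p = 0.00880), and 2.77 in reporter-positive cells (edgeR adjusted p = 0.00361), with 18.8% of its exonic bases under another gene.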
